A study of Mus musculus with 2 samples.

Results

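The genes described here are 10 members of the sirtuin and NAD synthesis pathways of the mouse: the sirtuins Sirt1, Sirt2, Sirt3, Sirt5 and Sirt6, and the NAD synthesis enzymes Nampt, Nmnat1, Nmnat3, Nmrk1 and Nmrk2. They were named by their role in these pathways, with earlier results of these data known, and all 10 were found among the 55536 genes of the deposited tables, of which 21951 are annotated as protein-coding. Heart tissue came from 2 males, aged 25 days, of B6CASTF1/J, a hybrid of the mouse strains C57BL/6J and CAST/EiJ, and total RNA of each was sequenced as 1 library from 300 ng. The labels name the libraries biological replicates 1 and 2 and give animal numbers 3 and 4, but 1 donor identifier for both. Nothing in the labels separates the animals by treatment, genotype or time, so there is 1 group of 2 hearts, no comparison between conditions, and values of replicate 1 over replicate 2 describe the spread within that group.

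NAD carries electrons in energy metabolism and is also consumed by signalling enzymes, so cells must keep remaking it. In most mammalian tissues the main route is salvage: NAMPT turns nicotinamide into nicotinamide mononucleotide (NMN), the riboside kinases NMRK1 and NMRK2 make NMN from nicotinamide riboside, and the NMNAT enzymes join NMN to an adenylyl group to give NAD. Sirtuins use NAD to remove acetyl and other acyl groups from proteins and work in different compartments, SIRT1 and SIRT6 chiefly in the nucleus, SIRT2 chiefly in the cytosol, and SIRT3 and SIRT5 in mitochondria, which fill much of a heart muscle cell.

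Replicate 1 held 38253821 and replicate 2 held 40655101 estimated counts over genes. Both libraries carried heart muscle RNA, with the 6 cardiomyocyte markers summing to 25619 TPM in replicate 1 and 27522 TPM in replicate 2, and little skeletal muscle RNA, whose 6 markers summed to 2.98 and 3.33 TPM, with Myog, a defining marker, at 0 in both. TPM is an abundance divided by effective transcript length and scaled to 1 total in each library, so that levels of different genes can be set side by side. Unless stated, levels are TPM of the deposited gene tables, given for replicate 1, then replicate 2, with the mean ± SD over both hearts (n = 2). Because the labels give both libraries 1 donor identifier, the SD may hold less than the full variation between animals.

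Of the 10 genes, 9 reached 1 TPM in both hearts. The same threshold was reached by 21.3% of all genes and by 49.7% of protein-coding genes, and the only member that missed it was Nmrk1, which lay at 1.04 TPM in replicate 1 and 0.85 TPM in replicate 2. By mean level the order was Nampt, Sirt2, Sirt3, Sirt5, Nmnat1, Nmnat3, Sirt1, Sirt6, Nmrk2 and Nmrk1, from percentile 93.3 to percentile 48.9 of the protein-coding genes. The order was set by these same values, so the comparison of neighbours describes it and does not test it. In all 9 pairs of neighbours in this order the upper gene was the higher one within both hearts, with a mean log2 ratio beyond its SD. With 2 hearts that is a weak criterion, and the credibility bounds deposited with each value (their level is not given in the sources used here) were apart in both hearts in only 3 of the 9 pairs, Sirt2 over Sirt3, Sirt5 over Nmnat1 and Nmnat1 over Nmnat3. The bounds of Nmnat3 and Sirt1 overlapped in both hearts, and the ranges of mean ± SD of Sirt6 and Nmrk2 overlapped. With 2 hearts an exact two-sided sign-flip test cannot go below p = 0.5, so no p is given.

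**Figure D1:**
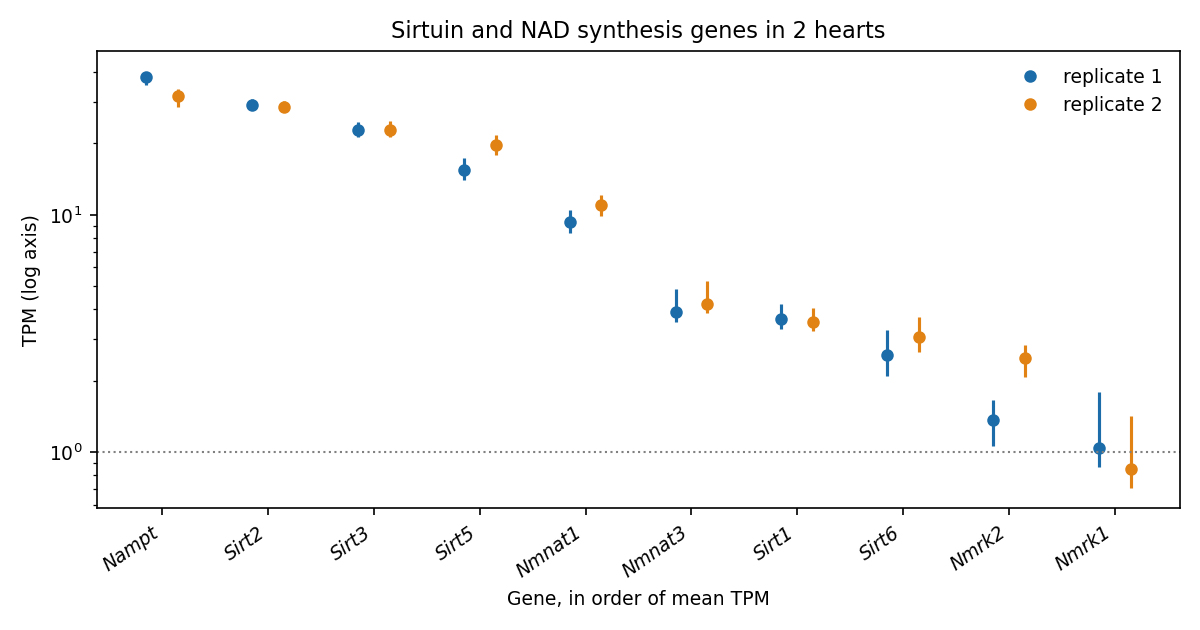
Level of the 10 genes in TPM (log axis) in replicate 1 (left of each pair) and replicate 2, with points at the deposited maximum likelihood value, bars at the deposited credibility bounds and a dotted line at 1 TPM. The genes run from Nampt at 38.2 and 31.6 TPM down to Nmrk1 at 1.04 and 0.85 TPM, and the bars of the 2 hearts do not overlap for Nampt, Sirt5 and Nmrk2.

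Among the synthesis genes, Nampt, the rate-limiting enzyme of NAD salvage (ENSMUSG00000020572.8, mm10 chromosome 12, 32819545 to 32853349, plus strand), was the highest. It stood at 38.2 TPM in replicate 1 and 31.6 TPM in replicate 2 (34.9 ± 4.62), from 4666 and 3697 estimated counts. Of the protein-coding genes, 1468 had a higher mean. The alternative entry to NMN was far lower. Nmrk1, the riboside kinase found in most tissues (ENSMUSG00000037847.14, chromosome 19, 18631950 to 18652428, plus strand), stood at 1.04 and 0.85 TPM (0.945 ± 0.134) from 46 and 42 counts. Nmrk2, the riboside kinase known for its expression in muscle (ENSMUSG00000004939.7, chromosome 10, 81198170 to 81202051, minus strand), stood at 1.36 and 2.48 TPM (1.92 ± 0.792) from 78 and 153 counts. Replicate 2 was thus the higher heart for Nmrk2, and replicate 1 for Nampt. For Nmrk1 the direction is not firm. Its deposited bounds overlapped, at 0.867 to 1.79 TPM in replicate 1 and 0.707 to 1.42 TPM in replicate 2. The second quantification described below put replicate 2 higher, at 1.42 TPM, against 1.21 TPM in replicate 1.

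Set against each other within a heart, on the scale log2(TPM + 0.1), Nampt exceeded Nmrk2 by 4.71 in replicate 1 and 3.62 in replicate 2 (4.17 ± 0.772). Nmrk2 over Nmrk1 was 0.36 in replicate 1 and 1.44 in replicate 2 (0.90 ± 0.77), with the wider gap in replicate 2. In replicate 1 the deposited bounds of Nmrk2, 1.06 to 1.65 TPM, lay inside those of Nmrk1, 0.867 to 1.79 TPM, and with posterior mean TPM the ratio was 0.59 ± 0.78, a mean within its SD. The order of the kinases is therefore not firm. Together the kinases summed to 2.40 TPM in replicate 1 and 3.33 TPM in replicate 2. An antisense gene, Atcayos, shares 270 of the 1854 exonic bases of Nmrk2 on the other strand and had 607 and 652 counts, and whether the counting used strand is not given in the sources used here, so reads of the 2 genes in these bases cannot be told apart here.

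The NMNAT enzymes, which complete NAD, lay between. Nmnat1, the nuclear enzyme (ENSMUSG00000028992.13, chromosome 4, 149467572 to 149485202, minus strand), stood at 9.34 TPM in replicate 1 and 11.0 TPM in replicate 2 (10.2 ± 1.17). Nmnat3, assigned to mitochondria (ENSMUSG00000032456.13, chromosome 9, 98287435 to 98420438, plus strand), stood at 3.90 and 4.21 TPM (4.06 ± 0.219). Nmnat1 was the higher of the pair in both hearts, by 1.24 and 1.36 on the log2 scale (1.30 ± 0.0891). Nmnat2, the third of these enzymes, known mainly from neurons, was at 0.24 and 0.11 TPM, from 22 and 12 counts. Nampt exceeded Nmnat1 by 2.02 in replicate 1 and 1.52 in replicate 2 on the log2 scale (1.77 ± 0.356).

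Among the sirtuins, the highest was Sirt2 (ENSMUSG00000015149.14, chromosome 7, 28766735 to 28788661, plus strand), a mainly cytosolic deacetylase first known for acting on tubulin, at 29.2 TPM in replicate 1 and 28.6 TPM in replicate 2 (28.9 ± 0.389). The main mitochondrial deacetylase, Sirt3 (ENSMUSG00000025486.17, chromosome 7, 140863666 to 140882309, minus strand), followed at 22.8 and 22.9 TPM (22.8 ± 0.0707). Both had nearly the same value in the 2 hearts. Sirt5, the mitochondrial enzyme that removes succinyl, malonyl and glutaryl groups (ENSMUSG00000054021.6, chromosome 13, 43365496 to 43395203, plus strand), stood at 15.5 TPM in replicate 1 and 19.7 TPM in replicate 2 (17.6 ± 2.96). Replicate 2 was the higher heart for Sirt5, and the deposited bounds of the hearts, 14.0 to 17.3 in replicate 1 and 17.8 to 21.7 in replicate 2, did not overlap. Sirt3 over Sirt5 was 0.56 in replicate 1 and 0.22 in replicate 2 on the log2 scale, a pair whose order turned round in the second quantification described below.

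The nuclear sirtuins were the low ones. Sirt1, a deacetylase of histones and transcription factors (ENSMUSG00000020063.16, chromosome 10, 63319005 to 63381704, minus strand), stood at 3.62 TPM in replicate 1 and 3.53 TPM in replicate 2 (3.58 ± 0.0636). Sirt6, a chromatin enzyme linked to DNA repair and glucose metabolism (ENSMUSG00000034748.16, chromosome 10, 81621785 to 81627797, minus strand), stood at 2.57 and 3.04 TPM (2.81 ± 0.332). Relative to Sirt1, Sirt2 was higher by 2.98 in both hearts and Sirt3 by 2.62 and 2.66 on the log2 scale, which are the 2 ratios with the smallest SD among the 8 pairs of members set against each other. These SDs do not cover the choice of quantification. In the second quantification the means over both hearts were 3.34 for Sirt2 and 2.62 for Sirt3. They were 3.47 and 3.14 when only transcripts annotated as protein_coding were counted. With the remaining sirtuins, Sirt4 and Sirt7, added in, the mitochondrial sirtuins Sirt3, Sirt4 and Sirt5 made up 53.3% of the summed sirtuin TPM in replicate 1 and 56.1% in replicate 2. Sirt2 made up 34.9% and 33.1%, and the nuclear Sirt1, Sirt6 and Sirt7 made up 11.7% and 10.8%. This grouping by compartment was chosen after the values were seen and is given as a description.

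Which transcript carried each gene was less certain than the level of the gene. In the first transcript table a single transcript led in both hearts for 9 of the 10 genes, each time with over 50% of the gene's TPM, and the exception was Nmrk1, with Nmrk1-206 ahead in replicate 1 and Nmrk1-201 in replicate 2. A second transcript table, made from the same libraries by another quantification, named the same leader in all 4 measurements for only 5 genes: Nampt, Nmnat3, Sirt1, Sirt6 and Nmrk2, the last of which has a single annotated transcript. Where transcripts with the same coding sequence were summed, the leading coding sequence was the same in all 4 measurements for 9 of the 10 genes, the exception being Sirt2. This summing was added after the data were seen.

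Sirt3 shows how the transcripts differ. Sirt3-201 and Sirt3-202 begin 440 bases apart, use different first exons, and hold the same 257-codon coding sequence, which starts in exon 2. Sirt3-205 shares its first exon with Sirt3-202 but joins it to an exon 2 that is 8 bases shorter, and its reading frame opens in exon 1, 77 codons upstream of the Sirt3-202 start codon and in frame with it. In the mouse, the longer open reading frame is the one known to add the amino-terminal stretch that carries SIRT3 into mitochondria. The junctions are shown because these 8 bases, in capitals below, are all that separates the short from the extended reading frame at this place (mm10 chromosome 7, 140878138 to 140878145, minus strand, sequence from the GENCODE M21 transcripts). In the lines of first coding bases, the capitals mark the start codon.
Sirt3-202 junction of exons 1 and 2: gggtccgggagTGTTACAGgtgggagaagg
Sirt3-205 junction of exons 1 and 2: gggtccgggaggtgggagaagg
Sirt3-205 first 30 coding bases: ATGgcgcttgaccctctaggcgccgtcgtc
Sirt3-202 first 30 coding bases: ATGgtgggggccggcatcagcacacccagt

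In the first table Sirt3-202 held 51.2% of the Sirt3 TPM in replicate 1 and 75.9% in replicate 2, and Sirt3-201 held 27.1% and 2.66%. In the second table the order was the reverse, with Sirt3-201 at 88.3% and 87.7% and Sirt3-202 near 0 in both hearts. Summed over their shared coding sequence, the pair held 78.3% and 78.6% in the first table and 88.3% and 87.7% in the second, so the coding sequence was steadier than the choice of first exon. Sirt3-205, with the extended reading frame, was given 13.8% in replicate 1 and 8.29% in replicate 2 by the first table, from 70.3 and 45.7 estimated counts, and 0 in both by the second. It is annotated as incomplete, with 258 codons and no stop codon, and ends 3 exons after the shortened exon 2, so reads from the 3′ end of an extended transcript could not be assigned to it. All 152 bases of the first exon of Sirt3-201 lie within exons of Psmd13, a proteasome subunit gene on the other strand with 1265 and 1435 counts, whereas none of the 107 bases of the first exon of Sirt3-202 do. Of its 5973 exonic bases, Sirt3 shares 342 with Psmd13 and 418 with Ric8a, also on the other strand, with 552 and 548 counts. As for Nmrk2, whether the counting used strand is not given, so reads in these bases cannot be told apart here.

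**Figure D2:**
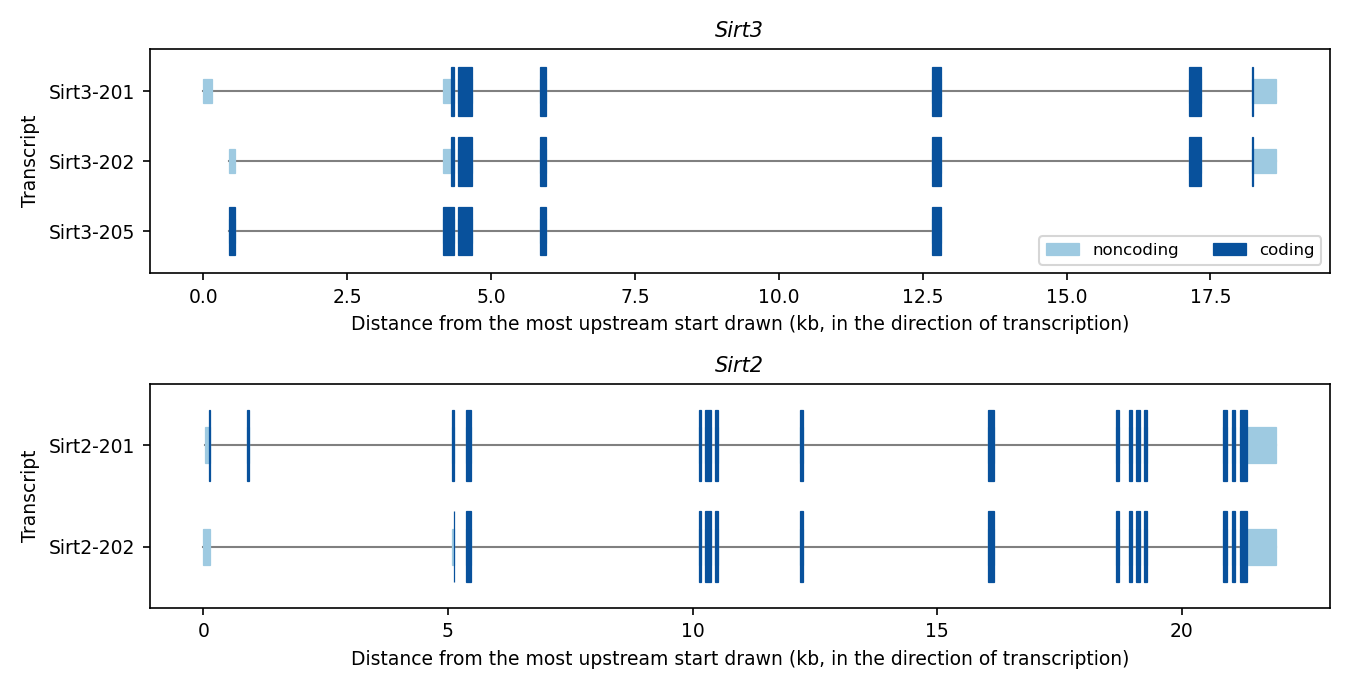
Exons of Sirt3-201, Sirt3-202 and Sirt3-205 (top) and of Sirt2-201 and Sirt2-202 (bottom) by distance in kb from the most upstream start drawn, in the direction of transcription, with tall dark blocks for coding and low pale blocks for noncoding bases. The coding blocks of Sirt3-205 open in exon 1, those of Sirt3-201 and Sirt3-202 in exon 2, and Sirt2-202 lacks the small second exon of Sirt2-201.

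Sirt2 was the gene whose coding sequence itself was in doubt. Sirt2-201 encodes 389 residues and Sirt2-202 encodes 352. Their annotated starts differ, with a first exon of 101 bases in Sirt2-201 and 133 bases in Sirt2-202. The transcripts also differ by a 47-base exon 2 (mm10 chromosome 7, 28767632 to 28767678, plus strand). Without it translation is annotated to begin later, leaving 37 codons off the amino-terminal end. The exon is shown in capitals with 10 bases of its neighbours, above the junction that replaces it (GENCODE M21 transcripts).
Sirt2-201 exon 2 and flanks: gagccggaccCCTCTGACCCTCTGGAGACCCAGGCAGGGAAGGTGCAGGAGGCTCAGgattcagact
Sirt2-202 junction: gagccggaccgattcagact

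By the first table Sirt2-202, without the exon, held 72.7% of the Sirt2 TPM in replicate 1 and 76.6% in replicate 2, against 19.0% and 14.4% for Sirt2-201. By the second table Sirt2-201 held 58.8% and 50.1%, and Sirt2-202 held 0.00248% and 4.00%. Another short coding form, Sirt2-208 with 351 codons, held 15.5% and 17.9% there, against 2.60% and 3.17% in the first table. The noncoding Sirt2-205 held 22.5% and 19.8% in the second table. Each table was steady between the hearts, and the tables differed from each other. Which of the forms led in these hearts is therefore not settled by the deposited values, although the counts of the whole gene were close, at 1613 in replicate 1 and 1698 in replicate 2 by the first quantification and 1698 and 1782 by the second. Its TPM in the second quantification was higher, at 41.9 and 43.8.

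For Sirt5, Sirt5-211 held 82.0% in replicate 1 and 84.0% in replicate 2 in the first table, with Sirt5-201, which has the same 310-codon reading frame, at 0. In the second table Sirt5-211 and Sirt5-201 together held 50.7% and 49.9%, and Sirt5-203, listed at 0 in the first, held 22.4% and 16.0%. For Nmnat1, the leading reading frame of 285 codons, shared by Nmnat1-201 and Nmnat1-202, held 68.0% and 63.8% in the first table and 40.7% and 56.9% in the second. Nmnat1-203, with a 149-codon reading frame, took 32.0% and 34.2% in the first table and 20.8% and 30.1% in the second, so all 4 measurements assigned part of Nmnat1 to the shortened form. For Sirt1, the full reading frame of 737 codons held 54.9% and 53.4% in the first table and 73.2% and 74.1% in the second. Next in the first table was Sirt1-205, annotated as a target of nonsense-mediated decay, the pathway that degrades transcripts with premature stop codons, at 31.6% and 25.6%, against 9.14% and 6.47% in the second. For Nampt, the single full-length reading frame, Nampt-201 with 491 codons, held 80.8% and 71.9% in the first table and 49.3% and 46.0% in the second.

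**Figure D3:**
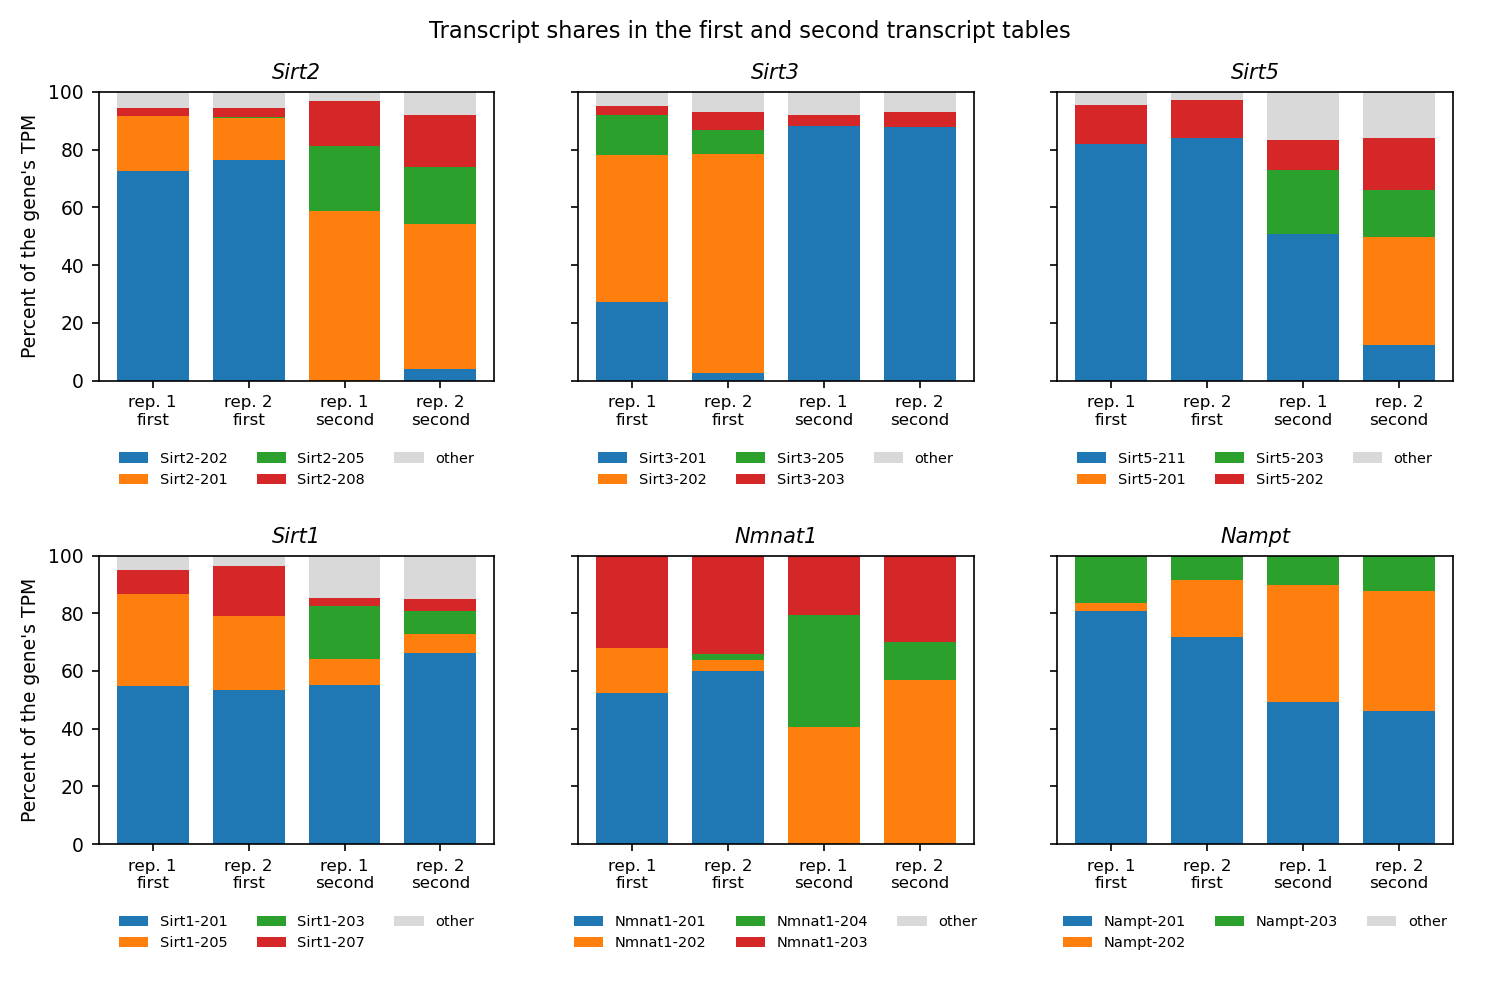
Percent of a gene's TPM held by its transcripts for Sirt2, Sirt3, Sirt5, Sirt1, Nmnat1 and Nampt, with 1 bar for each heart in the first and in the second transcript table, and transcripts beyond the top 4 in grey. In Sirt2 and Sirt3 the leading colour differs between the tables but not between the hearts, with Sirt2-202 at 72.7% and 76.6% in the first table and Sirt2-201 at 58.8% and 50.1% in the second.

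Across the members, transcripts of the protein_coding type held a median of 95.2% of a gene's TPM in the first table, beside a median of 92.7% over the 10901 protein-coding genes that reached 1 TPM in both hearts. The lowest protein_coding shares were those of Sirt1, at 63.3% in replicate 1 and 70.7% in replicate 2, and Nmrk1, at 63.4% and 82.2%. Nampt followed at 80.8% and 71.9%.

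The second quantification gave a higher TPM for all 10 genes, by a median of 0.42 on the log2 scale, whereas 11473 genes at 1 TPM or more had a median of 0.28. The largest mean shift over both hearts was that of Nampt, to 69.3 TPM in replicate 1 and 56.5 TPM in replicate 2, although its counts there, 4933 and 3877, were close to those of the first. In replicate 1 alone Nmnat1 shifted more, by 0.94 on the log2 scale, against 0.86 for Nampt. In the second table Nampt-202, a noncoding transcript of 411 bases, held 40.6% and 41.8% of the Nampt TPM from 102 and 87.0 counts. In the first table it had 11.1 and 67.7 counts. TPM also divides by an effective length, which is shorter in the second table. The parts of counts and length in the shift were not tested. Restricted to protein_coding transcripts of the first table, Nampt stood at 30.9 TPM in replicate 1 and 22.8 TPM in replicate 2, below Sirt2, which then stood at 27.7 and 27.2 TPM, in replicate 2 but not in replicate 1. Sirt5 gained counts as well as TPM in the second quantification, with 803 and 1033 counts in place of 603 and 821, and its 22.7 and 31.6 TPM there put it below Sirt3, at 25.1 TPM, in replicate 1 and above Sirt3, at 26.5 TPM, in replicate 2.

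To compare the hearts, counts were put on 1 scale by TMM (trimmed mean of M-values) and their log2 ratio, replicate 1 over replicate 2, was taken with an exact binomial 95% interval that covers counting error only. All 10 members passed the filter of a mean of 1 CPM (counts scaled by library total). None differed by 2-fold or more, a threshold passed by 1.21% of the 12910 genes tested. Nmrk2 came nearest, at 78 counts in replicate 1, against 153 in replicate 2, which is a log2 ratio of -0.83 (interval -1.24 to -0.42), or 0.564-fold. Its interval reached past 2-fold, so a difference of that size was not excluded by the counts. With 1 library per animal such ratios have no replicate check and were not tested.

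Nampt had the largest ratio in the other direction, at a log2 value of 0.48 (interval 0.42 to 0.54). The log2 ratio of its TPM was 0.27. In the first table its transcript shares differed between the hearts too. The short Nampt-202 was at 2.85% in replicate 1 and 19.5% in replicate 2 there, from 11.1 and 67.7 counts. The second table did not show this difference, with Nampt-202 at 40.6% and 41.8%. Sirt5, at -0.30 (interval -0.45 to -0.15), Nmnat1, at -0.19 (-0.37 to -0.02), and Sirt6, at -0.35 (-0.70 to -0.0018), were higher in replicate 2, with intervals below 0. With the spike-ins as the scale, the intervals of Nmnat1 and Sirt6 spanned 0, at ratios of -0.055 and -0.21. In TPM of the second quantification Nmnat1 was the higher in replicate 1, at 17.9, against 15.8 in replicate 2. Its counts there were still the higher in replicate 2, at 687, against 554 in replicate 1. The incomplete 393-base Nmnat1-204 stood at 6.90 and 2.06 TPM there, from only 22.9 and 6.89 counts. The intervals of Sirt1, Sirt2, Sirt3, Nmnat3 and Nmrk1 spanned 0 with TMM, whereas with spike-in scaling those of Sirt1, Sirt2 and Sirt3 lay above 0, at ratios of 0.21, 0.21 and 0.20. The median size of the log2 ratio was 0.23 over the members and 0.12 over all genes tested, and 95% of all genes lay between -0.51 and 0.64, a range that held every member except Nmrk2.

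Markers of other cell types differed between the hearts as well. The 6 adipocyte markers summed to 236 TPM in replicate 1 and 36.9 TPM in replicate 2, with 4 of the 5 that passed the filter higher in replicate 1 by 2-fold or more. Cfd, which encodes adipsin, stood at 174 and 22.1 TPM, and Adipoq, the defining marker that encodes adiponectin, at 25.0 and 4.05 TPM. The 5 erythroid markers summed to 46562 TPM in replicate 1 and 23411 TPM in replicate 2, with 3 of 5 higher in replicate 1 by 2-fold or more. The 4 macrophage markers summed to 121 and 77.1 TPM, with 1 of 4 past 2-fold, Lyz2, at 83.1 and 42.4 TPM, which made most of the gap. Adgre1 was also higher in replicate 1, at 5.22 and 3.60 TPM. Csf1r, at 14.6 and 14.3 TPM, and C1qb, at 18.1 and 16.8 TPM, were close in the 2 hearts, so the macrophage markers did not move as a set. Endothelial markers summed to 132 and 149 TPM and fibroblast markers to 405 and 368 TPM, with none of either past 2-fold. NAMPT is also known as an adipose and myeloid cell protein, and the part of these cells in the Nampt, Sirt5 and Nmrk2 ratios was not tested. In whole tissue, fewer cells of a type and less RNA per cell cannot be told apart.

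**Figure D4:**
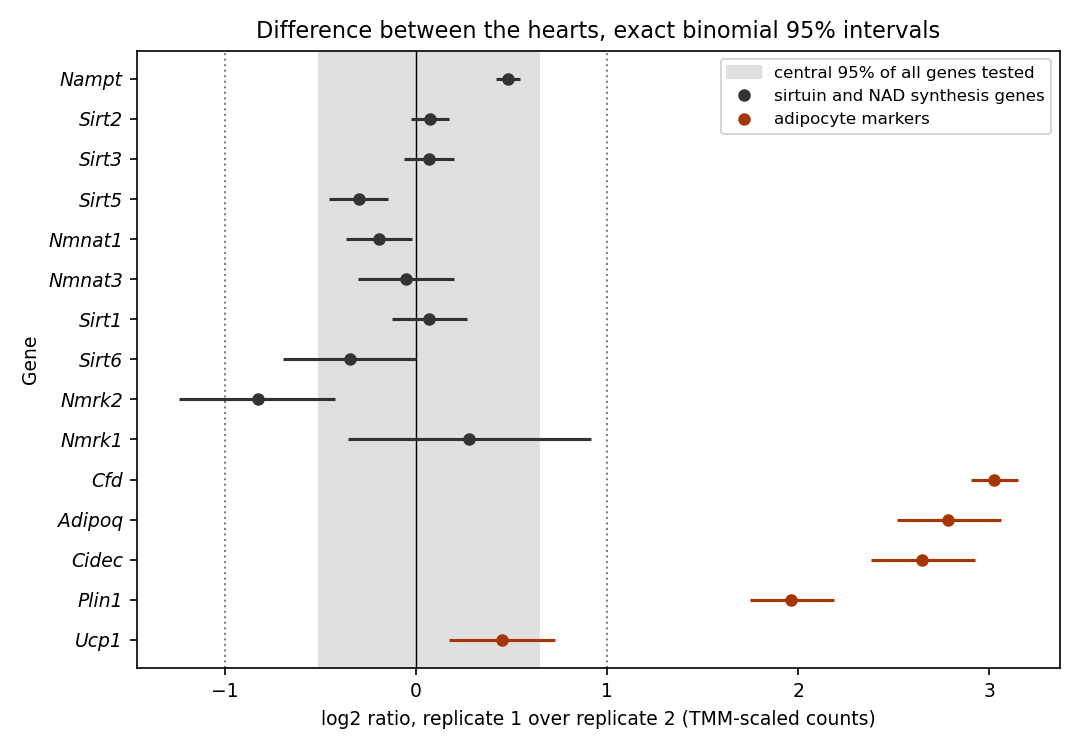
Log2 ratio of TMM-scaled counts, replicate 1 over replicate 2, for the 10 genes and for 5 adipocyte markers, with bars at exact binomial 95% intervals, dotted lines at 2-fold and a grey band over the central 95% of all genes tested. Every member lies within 2-fold, from Nmrk2 at -0.83 to Nampt at 0.48, whereas Cfd, Adipoq, Cidec and Plin1 lie beyond 2-fold.

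The rest of NAD metabolism was taken from 36 genes in 7 lists by role, and 24 of the 36 reached 1 TPM in both hearts, beside 49.7% of protein-coding genes. None of those that passed the filter was 2-fold or more apart between the hearts. Both other sirtuins passed 1 TPM, mitochondrial Sirt4 at 6.26 TPM in replicate 1 and 6.01 TPM in replicate 2, above Sirt1 and Sirt6, and nucleolar Sirt7 at 3.59 and 2.77 TPM.

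Of the 7 lists, de novo synthesis had the smallest share of genes at 1 TPM or more in both hearts. Of the 8 genes of de novo synthesis from tryptophan, 1 reached 1 TPM in both hearts, Afmid, which hydrolyses formylkynurenine, at 1.48 and 1.54 TPM. The lowest of that list, Ido2, had no count in either heart, which allows up to 0.0784 and 0.0738 CPM. Of the 4 other assembly enzymes, 2 reached 1 TPM in both hearts, and both belong to the route from nicotinic acid. The highest was Naprt, which starts that route, at 4.84 TPM in replicate 1 and 7.0 TPM in replicate 2, and Nadsyn1, which ends it, stood at 1.64 and 1.73 TPM. The lowest was Qprt, which joins the de novo route to the rest, at 0 TPM in replicate 1 and 0.03 TPM in replicate 2, from 0 and 2 counts. Nampt lay above every gene of both lists.

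Enzymes that consume NAD were broadly present, with 7 of 9 at 1 TPM or more in both hearts. The highest was the tankyrase Tnks2, a poly(ADP-ribose) polymerase, at 27.4 TPM in replicate 1 and 26.4 TPM in replicate 2, which is close to the level of Sirt2. The lowest was Sarm1, an NAD hydrolase of degenerating axons, at 0.11 and 0.12 TPM. Of genes that handle nicotinamide and its riboside, 6 of 7 passed, the highest being Slc25a51, the carrier that brings NAD into mitochondria, at 48.3 and 45.6 TPM, and the lowest Slc12a8, described as an NMN transporter, at 0.09 and 0.18 TPM. Slc25a51 lay above Nampt in both hearts, but below it in the second quantification, at 42.5 and 41.8 TPM. Nnmt, which methylates nicotinamide and so removes it from salvage, stood at 3.91 TPM in replicate 1 and 1.96 TPM in replicate 2 (108 and 65 counts, log2 ratio 0.88, interval 0.42 to 1.35). Bst1, which cleaves NAD to cyclic ADP-ribose, had 1.24 and 0.65 TPM (72 and 42 counts, log2 ratio 0.92, interval 0.36 to 1.51). Both are named after their values were seen, as the 2 listed genes that came nearest to 2-fold among those that passed the filter.

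All 3 genes of NADP formation and transhydrogenation passed 1 TPM. The highest was Nnt, the mitochondrial transhydrogenase, of which the C57BL/6J strain carries a deletion, at 179 TPM in replicate 1 and 164 TPM in replicate 2. A further annotated gene with the same name was listed at 0 in the first quantification and at 116 and 115 TPM in the second, where the main Nnt gene had 83.7 and 75.5 TPM, so the division of reads between these copies is uncertain. The lowest was the cytosolic NAD kinase Nadk, at 11.1 and 13.4 TPM. All 3 regulators of sirtuins passed too, from Ccar2, an inhibitor of SIRT1, at 6.43 and 6.77 TPM, to Hic1, a repressor of Sirt1 transcription, at 4.65 and 5.46 TPM.

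**Figure D5:**
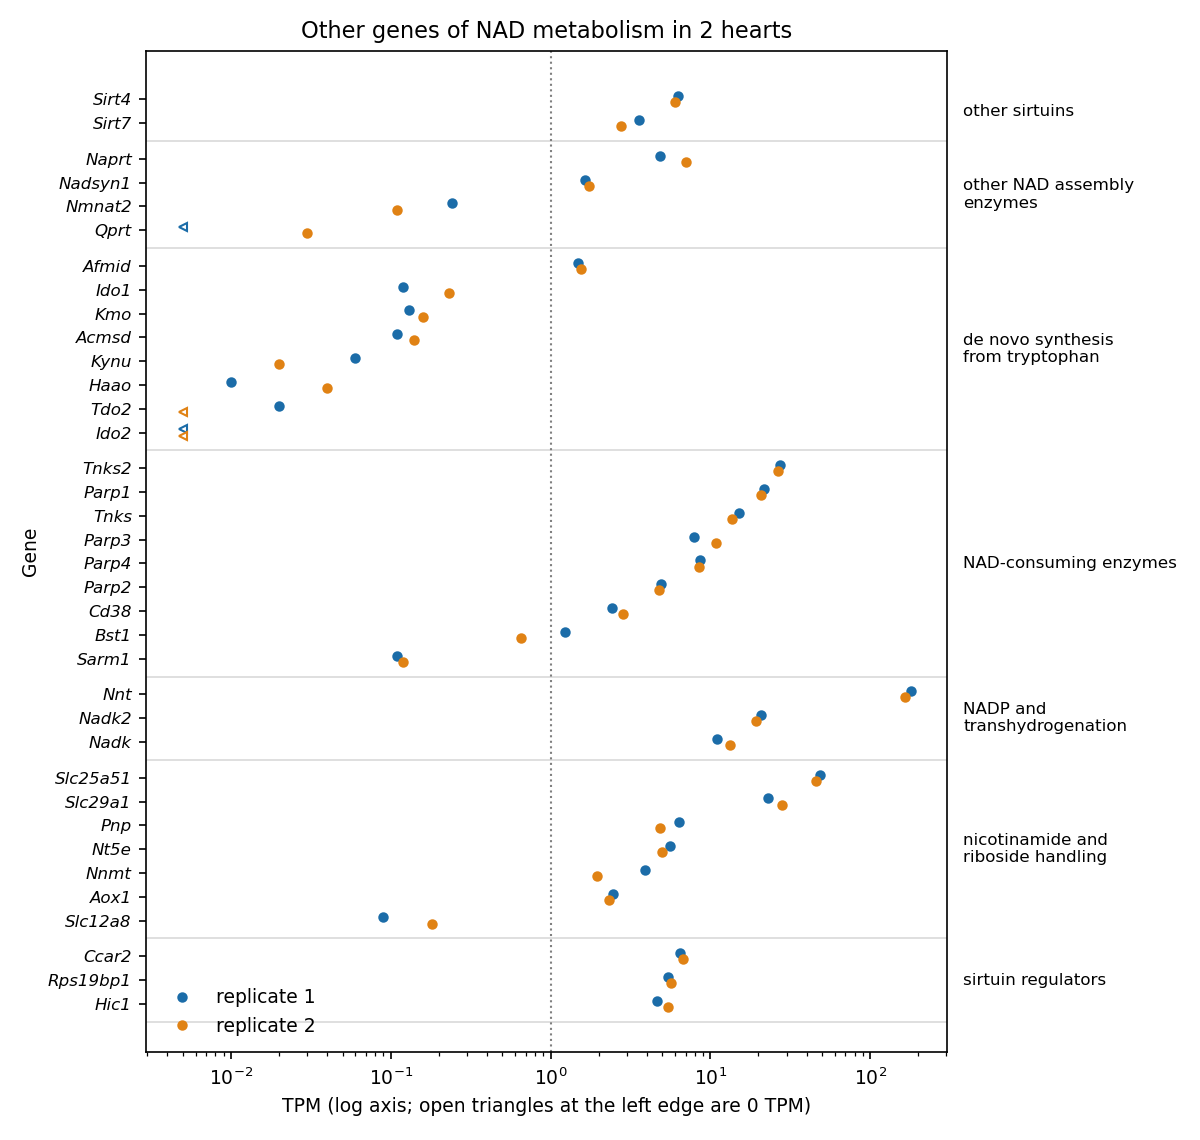
Level in TPM (log axis) of 36 other genes of NAD metabolism, grouped by role, in replicate 1 (upper point of each pair) and replicate 2, with a dotted line at 1 TPM and open triangles for 0. De novo synthesis is the list with most genes left of the line, with 1 of 8 past it, and Nnt is the highest gene at 179 and 164 TPM.

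Promoters of the members differed in base composition. RefSeq windows of 300 bases on the GRCm38.p6 build, 250 before to 50 after a start, were at hand for all 10 genes, with 13 windows because Sirt3, Sirt6 and Nmnat1 have 2 each. The members' windows held 8 to 47 CpG dinucleotides (median 23), beside a median of 7 over all 32851 windows. Those windows belong to 27025 genes and were not limited to protein-coding or expressed genes, so the 2 medians come from unlike sets. The most, 47, were in the window of Sirt1 and the fewest, 8, in that of Nmrk2. The letters TATAAA, searched on both strands, were in 1 of the 13 windows, that of Nmrk2, and in 13.6% of all windows. The letters CACGTG, which read the same on both strands, were in 1 of the 13, that of Sirt1, and in 7.15% of all. The Nmrk2 stretch is shown because, among the members' windows, it had the fewest CpG and the only TATAAA. Beside all windows neither stands out, as 8 CpG is close to the median of 7. Nmrk2 is also the member that differed most between the hearts, and a link between promoter and difference was not tested. The stretch holds the 100 bases before the RefSeq start (chromosome 10, 81202038 to 81202137, minus strand), with TATAAA in capitals, 46 bases before that start. In the annotation used for the counts Nmrk2 starts further upstream, at 81202051. The last bases of the stretch therefore lie inside that gene, and TATAAA is nearer to its start there.
Nmrk2 upstream: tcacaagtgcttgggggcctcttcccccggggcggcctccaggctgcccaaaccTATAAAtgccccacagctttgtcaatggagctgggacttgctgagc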

How the data were processed

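Estimated counts and TPM per gene were deposited by the authors for each heart, as maximum likelihood and posterior mean values with credibility bounds. A first transcript table, from a transcriptome alignment, gives the percent of a gene's abundance in each transcript, as deposited by the authors. A second one, also with estimated counts and TPM, came directly from reads, per the text files deposited with them, which name assembly mm10 and GENCODE annotation M21. No source used here gives tools or settings. In the median long transcript the effective length was 99.0 bases below the length in the first table, and 332 and 335 below it in the second (replicates 1 and 2).

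The 97 spike-ins (0.505% and 0.577% of counts) and 26248 transfer RNA rows (3.0 and 1.85 counts) were left out of library sizes. Counts were rounded and scaled by TMM (edgeR 4.0.16, R 4.3.3), and genes at a mean of 1 CPM were kept. A count that rounded to 0 was set at 3. Ratios between genes used TPM + 0.1, which understates ratios over low genes. A pair was counted as apart when both hearts had the same sign and the mean exceeded the SD. Intervals and floors cover counting error only. The ratio step was tested on simulated counts that held counting error only. With no variation between animals in them, they check the calculation and not the ratios between the hearts. Named genes are the 10 members and the highest and lowest gene of each list by role, with Nmnat2, Nadsyn1, Nnmt and Bst1 besides. Nnmt and Bst1 were named after their values were seen. Some cell type markers and genes that overlap members are named as well. Members, lists and pairs were chosen with earlier results of these data known. Alternatives were DESeq2 1.42.0 size factors, total and spike-in scaling, no filter, other thresholds and pseudocounts, posterior means, the second table and protein_coding transcripts alone. Python 3.11.15 with pandas 2.3.3 and scipy 1.17.1 was used.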

Additional observations from a re-analysis of the deposited data

How the results depend on the processing

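No member reached 2-fold between the hearts under DESeq2, total count or spike-in scaling, without the filter, or with counts of the second table, and at 1.5-fold 1 did, Nmrk2. Spike-in scaling moved the median log2 ratio of all genes to 0.13, and with it the share of 2-fold genes that were higher in replicate 1 to 85.8%, against 75% with TMM. The number of genes 2-fold apart was 156, against 4857 of 24638 without the filter and 591 at 1.5-fold. At 5 TPM in both hearts, 5 members were left in place of 9. A leading transcript over 50% that was the same in both hearts was found for 9 members, and for 5 the leader was also that of the second table. Of the 8 role pairs, all were apart, and 7 with posterior means (without Nmrk2 over Nmrk1, 0.59 ± 0.78), with the second table or with protein_coding transcripts alone. Of the 9 neighbours in order of level, an order set by the main values themselves, all were apart, and 7 to 8 under the same alternatives. Sirt1 over Sirt6 turned round with protein_coding transcripts alone (log2 ratio -0.070 ± 0.19), and Sirt3 over Sirt5 with the second table (-0.054 ± 0.28), both means within their SD. In both cases the cause was not tested. Leaving out each heart in turn left 9 to 10 members at 1 TPM, all 8 pairs in their order, and 9 to 10 members whose leading transcript in the heart that was left was also the leader by the mean share of both hearts. No paired analysis was possible because there is 1 group. Depth limits Nmrk1 most, with 46 and 42 counts.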
